A study of Mus musculus with 42 samples.

Results

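The libraries described here are the 22 labelled hippocampus of 42 mouse brain libraries, and the question put to them was whether the NaKtide difference depended on the diet. They were chosen by their region label alone, all libraries of the 4 groups being used. The mice labelled western NaKtide (6 libraries) and western (5 libraries) ate a western diet with 42% fat for 12 weeks, and those labelled control NaKtide (5 libraries) and control (6 libraries) ate chow with 11% fat for 12 weeks. The NaKtide groups are transgenic mice whose NaKtide expression was induced with 300 mg/kg doxycycline in the diet. The labels give no strain, age, sex, promoter or cell type of expression for the transgene, and do not say whether the mice without NaKtide carried the transgene or ate doxycycline. Transgene, doxycycline and peptide therefore cannot be told apart. The interaction is the log2 difference between western NaKtide and western minus the log2 difference between control NaKtide and control. A negative interaction thus means that the NaKtide difference was lower on the western diet than on the control diet.

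Na,K-ATPase is the membrane pump that keeps sodium low and potassium high inside cells, and in neurons it restores ion gradients after firing. The pump also binds the tyrosine kinase Src, and NaKtide is a peptide from the pump that keeps Src inactive. The hippocampus holds dentate granule cells and pyramidal cells, the principal neurons of its memory circuits, together with interneurons, astrocytes, oligodendrocytes and microglia, the resident immune cells of the brain.

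The tissue in the libraries was uneven. Totals ran from 4669374 to 9521002 counts, and between 14665 and 16345 genes reached 10 counts in a library. The principal cell markers of the hippocampus were present in every group, but markers of neighbouring tissue varied from library to library: Penk, a striatal neuropeptide precursor, reached a level of 1425 CPM (counts scaled to library size) in western NaKtide 6. The pituitary hormone Gh stood at 418 and 532 CPM in control NaKtide 3 and 4 and at no more than 12.1 CPM in any other library. Xist, which is made from an inactive X chromosome, had 1547 counts in western NaKtide 6, 87 in control 5 and 69 in control 6. No other library had more than 5 counts of it. Control 5 and 6 were also the closest pair among libraries of the same group, and counting them as 1 library left the calls described next at 0. Mitochondrial protein genes took 5.6% to 15.6% of counts in western NaKtide, 4.85% to 7.29% in western, 5.17% to 10.4% in control NaKtide and 5.21% to 7.64% in control libraries. Whether each library is a separate animal is not stated in the labels, and the p-values therefore cover the spread among these libraries, which may be technical.

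No gene passed the test of the interaction. Of 16442 genes tested with edgeR's quasi-likelihood test and Benjamini-Hochberg adjustment, 0 (0%) had an adjusted p under 0.05, and the smallest adjusted p was 0.0823. At an unadjusted p under 0.05 stood 2399 genes (14.6%), 1006 with a positive interaction (6.12%) and 1393 with a negative one (8.47%). DESeq2 called 182 genes, 51 positive and 131 negative. Without control NaKtide 3 and 4, the libraries with Gh, edgeR called 141 genes, a removal chosen after seeing the data. Without western NaKtide 2 it called 59, whereas it called 0 without the 3 libraries with Xist (3325 at an unadjusted p under 0.05). The median interaction over all genes was 0.03 on the log2 scale.

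In the same fit, NaKtide on the western diet changed 5542 genes (33.7%), 2856 higher (17.4%) and 2686 lower (16.3%). NaKtide on the control diet called 0 genes (0%) with edgeR, 2720 (16.5%) being at an unadjusted p under 0.05. The diet difference called 0 genes with edgeR both with NaKtide and without it, 1756 (10.7%) being at an unadjusted p under 0.05 with it and 4046 (24.6%) without it. Passing the threshold on one diet alone does not show a difference between diets, which the interaction tests. Across the 16442 genes, which are not independent replicates, the log2 difference of NaKtide on the western diet and that on the control diet had a Pearson r of 0.37, and these differences share no library.

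The western group without NaKtide was most often the one apart. For each gene the group whose mean lay farthest from the mean of the other 3 was found. Over all genes tested this was western in 53.3%, control NaKtide in 22.6%, western NaKtide in 17.6% and control in 6.53%. Among the 1393 genes with a negative interaction at an unadjusted p under 0.05 it was western in 70.6%, and among the 1006 with a positive one it was western in 52.5%. The 1393 genes had a median NaKtide difference of -0.81 on the western diet and 0.02 on the control diet, and a median diet difference of -0.27 with NaKtide and 0.52 without it. For the 1006 genes these medians were 0.74 on the western diet, -0.14 on the control diet, 0.43 with NaKtide and -0.49 without it. These medians describe genes selected by the same contrast and are no separate evidence for it.

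**Figure D1:**
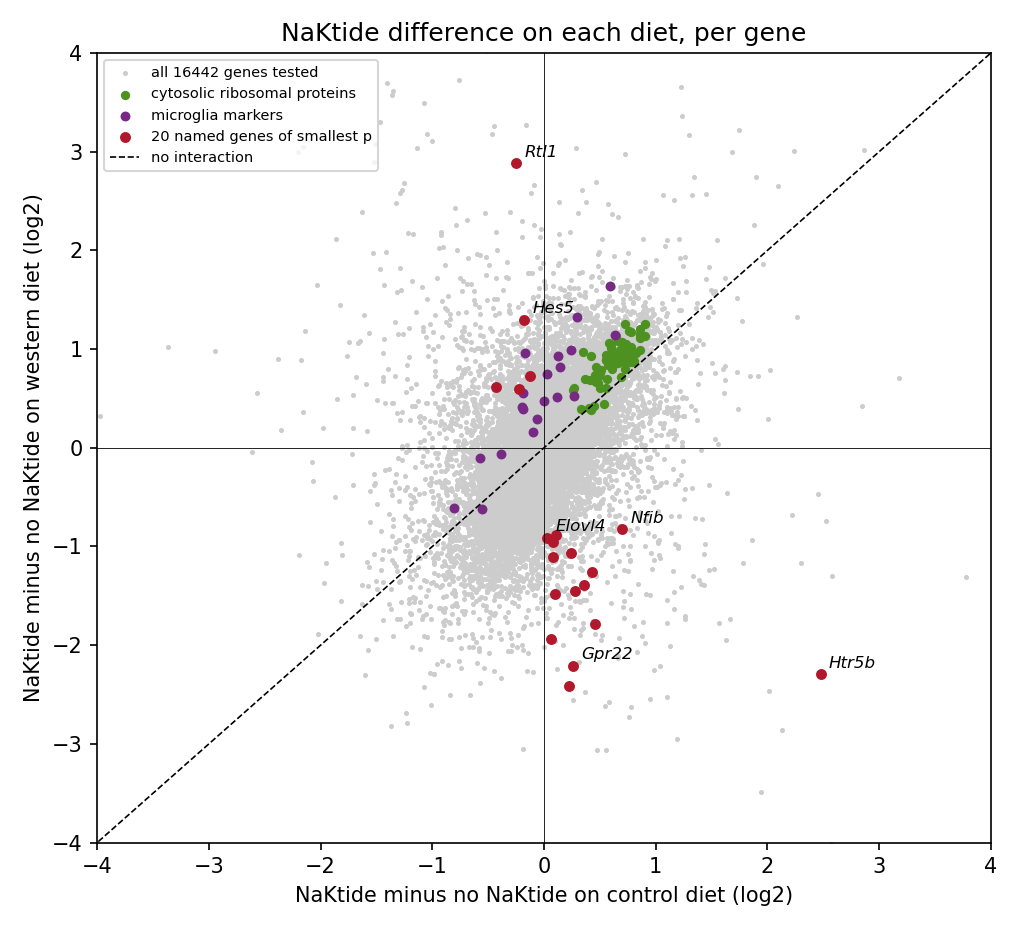
The log2 difference between NaKtide and no NaKtide on the western diet (vertical) is plotted against that on the control diet (horizontal) for each of the 16442 genes tested. The dashed line marks no interaction, and 20 genes lie outside the axes. The red points are the 20 named genes of smallest p, of which 15 lie below the line and 5 above it. Purple points are microglia markers and green points cytosolic ribosomal protein genes.

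The 20 genes of smallest p, among those with a gene symbol and at least 1 CPM on average, had interactions between 0.82 and 4.77 in size and adjusted p between 0.0823 and 0.0915. Interactions were negative for 15 of them and positive for 5. All 20 passed the test for NaKtide on the western diet, as did 33.7% of all genes, and 0 passed it for NaKtide on the control diet, as did 0% of all genes. Of the 15, 13 had their highest group mean in western, and all 5 positive genes had their lowest group mean there. In 13 genes every western NaKtide library lay below every western library (7.36% of all genes), and in 4 every one lay above (5.8%). On the control diet the libraries with and without NaKtide overlapped for all 20, and 1.33% of all genes had groups that did not overlap there. The 20 were chosen by the interaction, which contains both NaKtide differences, so these counts describe the choice and are no separate evidence. Without control NaKtide 3 and 4, a removal chosen after seeing the data, 16 of the 20 had an adjusted p under 0.05 (edgeR).

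For 4 of these genes the 250 bases before the RefSeq start (build GRCm38.p6) are shown because they stand for the main patterns below, an elongase, a calcium-responsive transcription factor and a synaptic adhesion gene with negative interactions and a Notch target with a positive one. Each is written from 5′ to 3′ on the strand of the gene, at chr9:83806306-83806555 (minus strand, Elovl4), chr4:151861769-151862018 (minus strand, Camta1), chr9:98033168-98033417 (minus strand, Clstn2) and chr4:154960673-154960922 (plus strand, Hes5). Capitals mark matches to 5 motifs searched on both strands.
Elovl4: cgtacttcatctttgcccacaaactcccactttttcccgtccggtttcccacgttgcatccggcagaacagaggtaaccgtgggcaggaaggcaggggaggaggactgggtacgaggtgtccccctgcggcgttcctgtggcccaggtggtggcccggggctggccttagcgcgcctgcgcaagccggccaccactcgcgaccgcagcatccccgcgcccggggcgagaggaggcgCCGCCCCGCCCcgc
Camta1: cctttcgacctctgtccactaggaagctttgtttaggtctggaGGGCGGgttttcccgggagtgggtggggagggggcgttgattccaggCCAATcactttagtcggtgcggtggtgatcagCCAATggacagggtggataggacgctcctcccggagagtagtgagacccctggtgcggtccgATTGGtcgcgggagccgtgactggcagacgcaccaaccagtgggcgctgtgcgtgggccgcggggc
Clstn2: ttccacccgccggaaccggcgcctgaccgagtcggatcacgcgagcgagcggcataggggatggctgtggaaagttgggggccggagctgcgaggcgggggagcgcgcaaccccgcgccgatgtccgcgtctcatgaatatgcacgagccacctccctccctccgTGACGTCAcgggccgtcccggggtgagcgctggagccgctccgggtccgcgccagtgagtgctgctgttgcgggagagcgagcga
Hes5: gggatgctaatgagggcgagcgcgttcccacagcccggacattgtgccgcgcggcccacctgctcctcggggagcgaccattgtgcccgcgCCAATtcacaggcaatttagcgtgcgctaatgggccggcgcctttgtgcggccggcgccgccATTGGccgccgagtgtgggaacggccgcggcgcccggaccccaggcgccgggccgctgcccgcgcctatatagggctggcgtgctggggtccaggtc
The motifs were CCAAT or ATTGG (the CCAAT box), GGGCGG or CCGCCC (the GC box), TGACGTCA (the cAMP response element), CACGTG (an E-box) and TATAAA or TTTATA (the TATA box). Of 32851 promoters of this length, 33.8% held the CCAAT box, 32.7% the GC box, 1.55% the cAMP response element, 6.02% this E-box and 12.4% the TATA box. Elovl4 held 2 GC boxes, Camta1 held 3 CCAAT boxes and 1 GC box, Clstn2 held 1 cAMP response element and Hes5 held 2 CCAAT boxes. The GC content of these windows was 69.6% for Elovl4, 63.6% for Camta1, 70.8% for Clstn2 and 71.6% for Hes5, against a median of 52.4% over all promoters. Of the 13 windows that could be used, those of Gpr22 (39.6%) and Rtl8b (51.2%) lay below that median. A match is a description of the letters only.

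Of the lipid and energy enzymes among the 20, Elovl4 is the elongase that makes very long chain fatty acids (chr9:83778692-83806277, GENCODE M21 positions on GRCm38 here and below). Elovl4 had a low of 23.9, a median of 25.4 and a high of 25.8 CPM in western NaKtide libraries, against 41.6, 49.8, 47.3, 51.8 and 46.4 CPM in western libraries. It had 33.1, 39.7, 27.5, 21.9 and 32.0 CPM in control NaKtide libraries, against a low of 24.7, a median of 32.1 and a high of 33.5 CPM in control libraries. All western libraries stood above all others, and the remaining groups overlapped in part. The interaction was -0.94 ± 0.18 (log2, SE; adjusted p = 0.0823, edgeR), made of a NaKtide difference of -0.91 on the western diet (adjusted p = 0.000907) and of 0.03 on the control diet (adjusted p = 0.918).

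Gpd2, the mitochondrial glycerol-3-phosphate dehydrogenase of the glycerol phosphate shuttle (chr2:57237635-57370719), had a similar order. Its levels were 25.4 (low), 40.8 (median) and 52.4 CPM (high) in western NaKtide libraries, against 97.4, 110.4, 128, 143 and 76.5 CPM in western libraries. They were 95.9, 67, 47.3, 42.3 and 63.9 CPM in control NaKtide libraries, against 36.3 (low), 63.1 (median) and 67.6 CPM (high) in control libraries. The western diet groups did not overlap, whereas the control diet groups did. The interaction of Gpd2 was -1.58 ± 0.31 (adjusted p = 0.0823, edgeR). Of 14 fatty acid elongases and desaturases, 1, Elovl4, was at an unadjusted p under 0.05 (7.14%, against 14.6% of all genes). The median interaction of the list was -0.08.

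Transcription regulators with negative interactions were Camta1, a calmodulin-binding transcription activator, Nfib and Tcf4, developmental transcription factors that stay expressed in hippocampal neurons, and Kdm7a, a histone lysine demethylase. Camta1 (chr4:150917322-151861876) ran from 87.5 to 156 CPM with a median of 134 in western NaKtide libraries, against 273, 288, 258, 311 and 257 CPM in western libraries. On the control diet it had 196, 177, 146, 116 and 151 CPM with NaKtide, against 113 to 193 CPM with a median of 142 in control libraries. The western libraries were again the high ones, and no western library overlapped another group. Its interaction was -1.18 ± 0.23 (adjusted p = 0.0823, edgeR).

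Nfib differed from this order, since its highest group was control NaKtide. Nfib had 30.2 to 81.5 CPM (median 58.9) in western NaKtide libraries, against 117, 84.2, 87.9, 123 and 86.0 CPM in western libraries. It had 162, 125, 105, 96.0 and 84.8 CPM in control NaKtide libraries, against 50.2 to 84.9 CPM (median 71.0) in control libraries. NaKtide thus stood on opposite sides of no NaKtide on the 2 diets, with a difference of -0.82 on the western diet (adjusted p = 0.00822) and of 0.70 on the control diet (adjusted p = 0.21, edgeR). Tcf4 had an interaction of -1.69 ± 0.34 and Kdm7a one of -1.31 ± 0.26.

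The other genes of the 20 with negative interactions have various roles. Mpdz, a scaffold with many PDZ domains at synapses and tight junctions (chr4:81278500-81442815), had 21.8 to 32.5 CPM (median 29.9) in western NaKtide libraries, against 55.4, 54.2, 49.8, 53.3 and 47.8 CPM in western libraries. It had 43.4, 43.1, 40.3, 34.9 and 30.3 CPM in control NaKtide libraries, against 27.5 to 41.2 CPM (median 37.1) in control libraries. The western libraries stood above all others, and Mpdz had the smallest p of the genes named, with an interaction of -0.99 ± 0.18 (adjusted p = 0.0823, edgeR).

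Clstn2, a calsyntenin that acts as an adhesion protein at synapses, had 22.4 to 53.6 CPM (median 33.2) in western NaKtide libraries, against 126, 68.7, 85.3, 108 and 84.6 CPM in western libraries. It had 81.9, 105, 49.9, 36.9 and 58.8 CPM in control NaKtide libraries, against 43.8 to 59.6 CPM (median 51.8) in control libraries. Control NaKtide 1 and 2 lay within the range of the western libraries, and the other 3 lay near the control libraries. The interaction of Clstn2 was -1.75 ± 0.35. Negative interactions were also given by Gpr22, an orphan G protein-coupled receptor (-2.47 ± 0.50), by Trhde, an enzyme that degrades thyrotropin-releasing hormone (-2.63 ± 0.56), by Npnt, an integrin ligand of the extracellular matrix (-2.01 ± 0.43), by Susd6, a sushi domain membrane protein (-1.73 ± 0.34), and by Luzp1, a leucine zipper protein (-1.04 ± 0.21). The growth factor Fgf10 had -2.24 ± 0.44.

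The interaction of Htr5b, a serotonin receptor, was the largest in size of the 20 at -4.77 ± 0.99 and rested on low counts and an uneven group. Htr5b had 0 to 2.41 CPM (median 0.494) in western NaKtide libraries, against 2.54, 4.02, 4.63, 5.68 and 1.58 CPM in western libraries. It had 5.44, 3.87, 14.9, 2.80 and 0.160 CPM in control NaKtide libraries, against 0.341 to 1.69 CPM (median 0.944) in control libraries. One control NaKtide library was far above the rest and another below every control library.

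Positive interactions came from Rtl1, Hes5, Smarcd3, Bcan and Rtl8b. Hes5, a transcriptional repressor switched on by Notch signalling (chr4:154960923-154962371), had 10.4 to 26 CPM (median 13.8) in western NaKtide libraries, against 4.82, 6.56, 8.67, 5.18 and 8.05 CPM in western libraries. It had 13.7, 12.5, 12.6, 12.7 and 13.1 CPM in control NaKtide libraries, against 12.2 to 17.1 CPM (median 14.9) in control libraries. The western libraries were the low ones, below every library of the other groups. The interaction of Hes5 was 1.48 ± 0.32 (adjusted p = 0.0915, edgeR), with a NaKtide difference of 1.30 on the western diet (adjusted p = 0.0015) and of -0.18 on the control diet (adjusted p = 0.703).

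Bcan, the brevican proteoglycan of the brain extracellular matrix (chr3:87987531-88000230), was higher in every western NaKtide library (290.3 to 447 CPM, median 354) than in the western libraries, which had 196, 215, 243, 202 and 239 CPM. It had 246, 248, 245, 262 and 243 CPM in control NaKtide libraries, against 229.5 to 331 CPM (median 255) in control libraries. Its interaction was 0.85 ± 0.18 (adjusted p = 0.0915, edgeR). Smarcd3, a subunit of the BAF chromatin remodelling complex, had 1.04 ± 0.22.

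Rtl1, an imprinted gene derived from a retrotransposon, had 3.11 to 24.1 CPM (median 12.1) in western NaKtide libraries, against 1.2, 2.83, 1.19, 0.864 and 3.00 CPM in western libraries. It had 4.66, 7.24, 9.60, 1.78 and 6.25 CPM in control NaKtide libraries, against 5.58 to 8.89 CPM (median 6.96) in control libraries. The western diet groups did not overlap and the control diet groups did, and the interaction was 3.13 ± 0.61 (adjusted p = 0.0823, edgeR). An antisense transcript overlaps Rtl1, and whether the counting used strand is not given in the sources used here. Rtl8b (0.82 ± 0.18, and 0.52 with a trend in exon length and GC content taken out) belongs to a family of near-identical copies, so its reads may be split between genes.

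**Figure D2:**
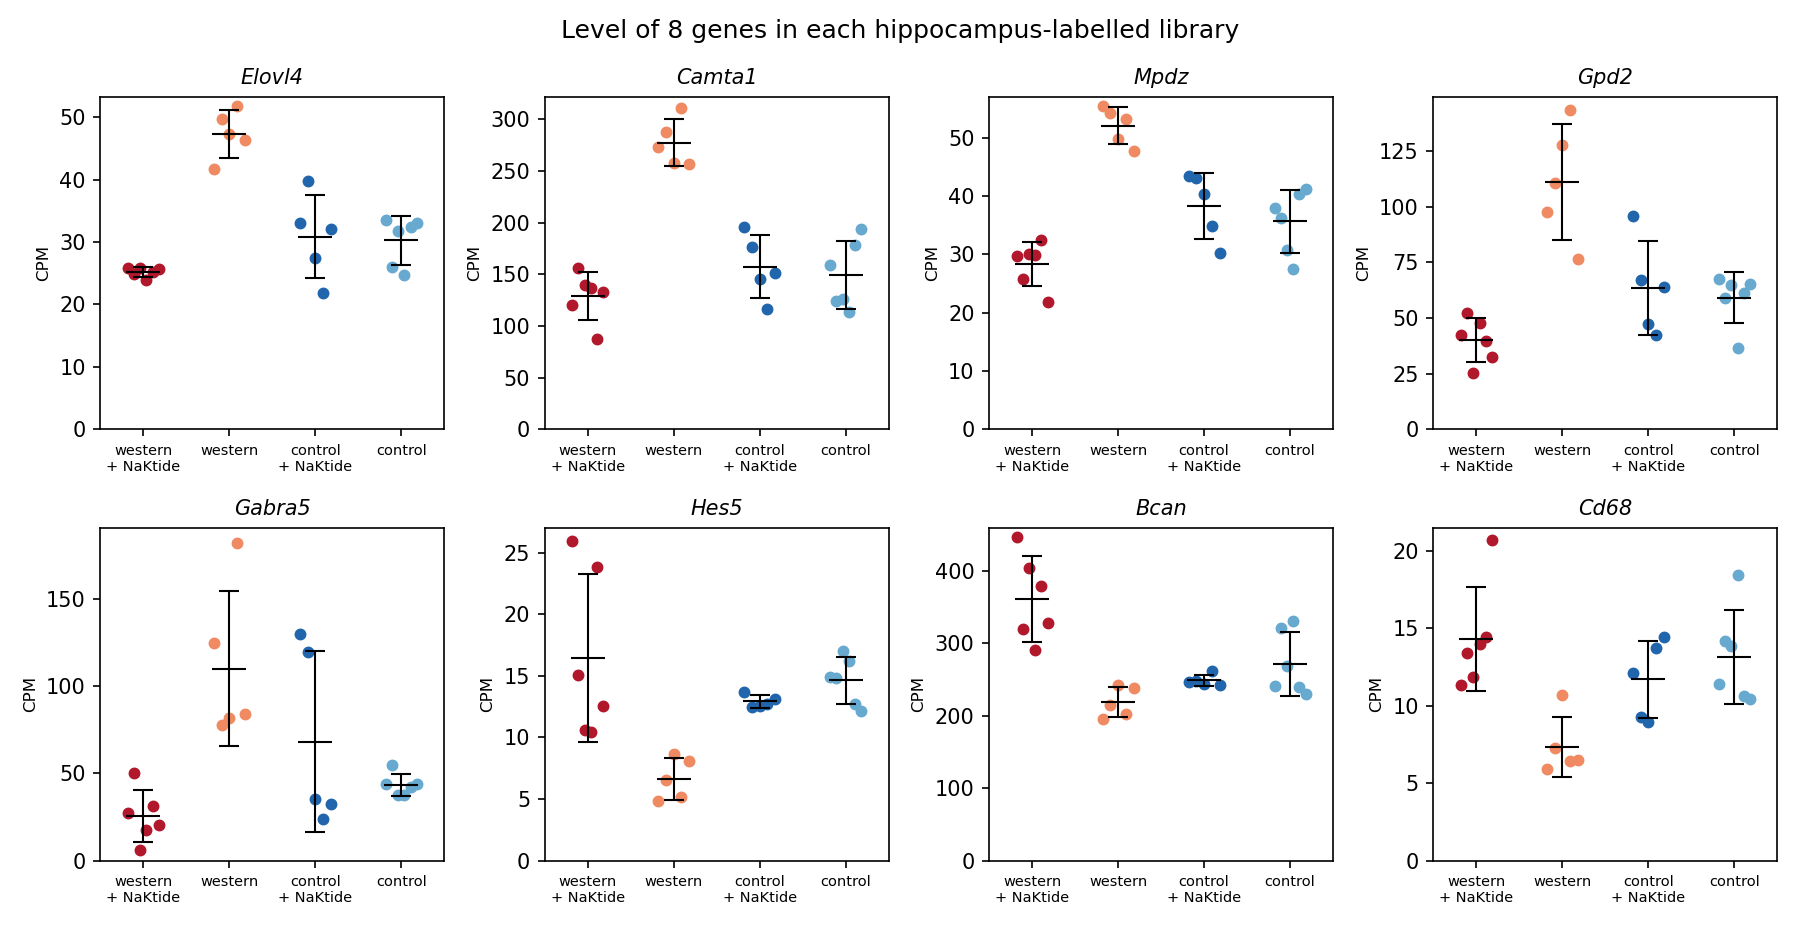
Levels in CPM with TMM factors are plotted for 8 genes, with 1 point per library, a line at the group mean and bars of 1 SD (western NaKtide n = 6, western n = 5, control NaKtide n = 5, control n = 6). Elovl4, Camta1, Mpdz, Gpd2 and Gabra5 have their highest mean in western and Hes5, Bcan and Cd68 their lowest there, and the axes of the genes differ.

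No gene of the pump and kinase list passed the interaction test with all libraries. Over 23 genes of the Na,K-ATPase and Src list, 1 had an unadjusted p under 0.05 (4.35%, against 14.6% of all genes), and the median interaction was 0.01, against 0.03 over all genes. That gene was Atp1b1, the main beta subunit (chr1:164437109-164458355), with 521 to 664 CPM (median 541) in western NaKtide libraries, against 1079.9, 1198, 1011, 1215 and 1007 CPM in western libraries. Atp1b1 had 888, 874, 463, 419 and 792 CPM in control NaKtide libraries, against 546 to 965 CPM (median 828) in control libraries. The western diet groups were separated by more than their ranges and the control diet groups overlapped. Its interaction was -0.78 ± 0.26 (adjusted p = 0.204, edgeR). With the dentate and pyramidal marker levels as covariates it was -0.52 (adjusted p = 0.512, edgeR), and with the striatal one -0.72 (adjusted p = 0.38, edgeR). Without control NaKtide 3 and 4 it was -1.09 (adjusted p = 0.0256, edgeR), the 1 alternative of 35 under which Atp1b1 passed the threshold. These fits were added after seeing the data. On the western diet Atp1b1 fell by 0.96 on the log2 scale with NaKtide (adjusted p = 0.00244).

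Src, the kinase that NaKtide keeps inactive, had 71.8 to 127 CPM (median 105) in western NaKtide libraries, against 116, 116, 127, 120.3 and 90.4 CPM in western libraries. It had 119, 105, 85.5, 76.7 and 81.9 CPM in control NaKtide libraries, against 86.1 to 107 CPM (median 94.0) in control libraries. The groups overlapped on both diets. Its interaction was -0.16 ± 0.21 (adjusted p = 0.774, edgeR), and its sign turned with marker levels of striatum (0.11) or of dentate and pyramidal cells (0.17) as covariates, alternatives added after seeing the data.

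Of the 21 pathway lists, the microglia list held the most genes with a positive interaction at an unadjusted p under 0.05. Of 20 tested, 9 had one (background 6.12%) and 0 a negative one. A total of 19 had a positive sign, and their median interaction was 0.54, against 0.03 over all genes tested. None passed the adjusted threshold, the smallest adjusted p being 0.116 for Cd68. For NaKtide on the western diet 11 of the 20 passed, all higher (17.4% of all genes), with a list median of 0.52, against -0.04 for NaKtide on the control diet. In whole tissue, fewer cells of a type and less RNA per cell cannot be told apart.

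Cd68, a lysosomal protein of phagocytes (chr11:69664213-69666153), had 11.4 to 20.7 CPM (median 13.7) in western NaKtide libraries, against 5.89, 7.30, 10.7, 6.42 and 6.47 CPM in western libraries. It had 12.1, 9.25, 8.96, 13.8 and 14.4 CPM in control NaKtide libraries, against 10.4 to 18.4 CPM (median 12.6) in control libraries. All but 1 of the western libraries stood below every library of the other groups. Its interaction was 1.13 ± 0.28 (edgeR).

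Aif1, the microglial marker IBA1, had 12.8 to 20.4 CPM (median 17.0) in western NaKtide libraries, against 6.02, 3.72, 6.77, 4.69 and 5.21 CPM in western libraries. It had 15.7, 14, 14.3, 24.4 and 15.5 CPM in control NaKtide libraries, against 8.24 to 16.7 CPM (median 10.4) in control libraries. The western libraries were below all others, and the control libraries overlapped those with NaKtide. Aif1 had an interaction of 1.05, Trem2, a lipid-sensing microglial receptor, one of 1.03, and the complement genes C1qa, C1qb and C1qc ones of 0.81, 0.76 and 0.68. Csf1r, the growth factor receptor on which microglia depend, had 0.58. The summed level of the list ran from 885 to 1167 CPM in western NaKtide, from 574 to 872 CPM in western, from 755 to 1214 CPM in control NaKtide and from 759 to 1093 CPM in control, and no member was at 0 in a whole group.

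The GABA-A receptor list had the lowest median of the 21. Of 12 GABA-A receptor subunits, the chloride channels of fast inhibition, 5 had a negative interaction at an unadjusted p under 0.05 (background 8.47%) and 1, Gabrd, a positive one, with a list median of -0.69. That median was -0.31 with 2 surrogate variables, -0.26 with a trend in exon length and GC content taken out and -0.25 with the levels of dentate and pyramidal cell markers as covariates. Among the 5 were Gabra5, Gabrb2 and Gabra2, with interactions of -2.78, -1.44 and -0.88. Gabrd, a subunit of extrasynaptic receptors, had 1.27. On the western diet, 8 of the 12 fell with NaKtide (16.3% of all genes) and 0 rose.

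Gabra5, a subunit concentrated in the hippocampus (chr7:57407672-57510059), had 5.93 to 50.2 CPM (median 23.9) in western NaKtide libraries, against 125, 77.6, 82.0, 182 and 83.8 CPM in western libraries. It had 130.1, 119.8, 35.2, 23.7 and 32.2 CPM in control NaKtide libraries, against 37.4 to 54.8 CPM (median 42.8) in control libraries. Control NaKtide fell into 2 high and 3 low libraries, either side of the control range. Its interaction of -2.78 ± 0.61 (adjusted p = 0.0915, edgeR) became -0.36 (adjusted p = 0.676, edgeR) with the levels of dentate and pyramidal cell markers as covariates. Without control NaKtide 3 and 4 the interaction was -3.25 (adjusted p = 0.0168, edgeR). Both alternatives were added after seeing the data.

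Of 10 AMPA and NMDA receptor subunits, the glutamate receptors of excitation, Grin2a (-1.96 ± 0.48), Gria1 (-1.09) and Gria2 (-0.99) had a negative interaction at an unadjusted p under 0.05 (background 8.47%) and Grin2d (1.06) a positive one (background 6.12%). The list had 5 positive and 5 negative members and a median of -0.13, which changed sign under some alternatives (-0.41 to 0.14). Grin2a had 28.9 to 73.2 CPM (median 35.3) in western NaKtide libraries, against 149, 121, 188, 195 and 97.7 CPM in western libraries. It had 140.1, 94.4, 41.2, 32.3 and 83.2 CPM in control NaKtide libraries, against 37.5 to 114 CPM (median 63.7) in control libraries. The western diet groups did not overlap, and the control NaKtide libraries spread over the whole control range and beyond it. With the dentate and pyramidal marker levels as covariates the interaction of Grin2a was -0.98 (adjusted p = 0.405, edgeR). Without control NaKtide 3 and 4 it was -2.38 (adjusted p = 0.0208, edgeR), and both fits were added after seeing the data.

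Of 24 synaptic plasticity genes, 5 had a negative interaction at an unadjusted p under 0.05 and 0 a positive one, with a median of -0.35 (background 8.47% negative and 6.12% positive). The median was -0.03 with the dentate and pyramidal marker levels as covariates, -0.18 with the striatal one and -0.17 with a component of the cerebellum libraries, and leaving out single libraries took it to -0.20 (control NaKtide 1), -0.22 (western 3) and -0.23 (western NaKtide 2). Among the 5 were Dlgap1, a postsynaptic scaffold (-1.12), Bdnf, the neurotrophin (-1.75), Nlgn1, a postsynaptic adhesion protein (-0.90), and Pclo, an active zone protein (-0.81). On the western diet 9 of the 24 fell with NaKtide (16.3% of all genes) and 0 rose. Of 18 voltage-gated potassium channel genes, 1, Kcnb2, was at an unadjusted p under 0.05 (5.56%, against 14.6% of all genes). Kcnb2 had -0.94 ± 0.43, and -0.50 with a trend in exon length and GC content taken out. The list median was -0.40. Of 7 calcium pump genes, 1, the plasma membrane pump Atp2b3, was at an unadjusted p under 0.05 (14.3%, against 14.6% of all genes). Atp2b3 had -1.43 ± 0.38, and -0.69 with the dentate and pyramidal covariates.

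Of 24 insulin and leptin signalling genes, 5 had a negative interaction at an unadjusted p under 0.05 (background 8.47%). None had a positive one (background 6.12%), and the list median was -0.29. Among the 5 were the receptor substrates Irs1 (-1.66) and Irs2 (-0.65) and the lipid kinase subunit Pik3ca (-0.41). Irs1 was low throughout, with group medians of 0.935 CPM in western NaKtide, 5.06 CPM in western, 1.01 CPM in control NaKtide and 1.77 CPM in control.

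Ribosomal and respiratory genes changed widely with NaKtide on the western diet but few of them had a small p in the interaction. Of 79 cytosolic ribosomal protein genes, 75 rose on the western diet with NaKtide, where 17.4% of all genes did, and the list median was 0.90 there and 0.66 on the control diet. Their median interaction was 0.25, against 0.03 over all genes, with 75 interactions positive and 4 negative. Of the list 1 gene, Rpl29, was at an unadjusted p under 0.05 (1.27%, against 14.6% of all genes). Among 75 nuclear respiratory chain genes, 47 were higher (17.4% of all genes) and 2 lower (16.3%) with NaKtide on the western diet. The medians were 0.61 on the western diet, 0.45 on the control diet and 0.12 for the interaction, which was positive for 59 and negative for 16. Only Ndufs1, a complex I subunit, had an unadjusted p under 0.05 in that list (-0.37 ± 0.16, and -0.11 with a trend in exon length and GC content taken out). For the 13 mitochondrially encoded genes the median interaction was 0.09 and 0 were at an unadjusted p under 0.05.

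These lists hold mostly short genes, and the differences followed exon length and GC content across the 16420 genes with both. The NaKtide difference had a Pearson r with log2 exon length of -0.40 on the western diet and -0.39 on the control diet, and the interaction one of -0.15. With GC content the interaction had an r of 0.30. The median interaction was 0.17 in the shortest length quartile and -0.11 in the longest. Taking out a trend with length and GC content left 0 genes called and 2020 at an unadjusted p under 0.05, 1000 positive and 1020 negative, a more even split than the 1006 and 1393 without it.

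The other pathway lists ran from 0% to 25% of genes at an unadjusted p under 0.05, against 14.6% of all genes. There were 1 of 31 proteasome genes (Psmc6), 4 of 31 antioxidant genes, 3 of 25 cholesterol genes, 0 of 20 interferon and MHC class I genes and 3 of the 12 cytokine and NF-kB genes that passed the filter on low counts, of 18 listed. The cytokine and NF-kB list (25%) and the clock list (20%, 3 of 15) were the 2 above the share of all genes. There were 2 of 16 sodium and calcium channel genes, 2 of 16 immediate-early genes and 2 of 20 Alzheimer disease-related genes. Gpx1, the main cytosolic glutathione peroxidase, had 0.79 ± 0.28 (0.45 with the striatal and 0.49 with the dentate and pyramidal covariates), and Sod2, the mitochondrial superoxide dismutase, had -0.40. Nr4a3, an activity-induced nuclear receptor, had -2.35 ± 0.65. Its interaction became -1.21 (adjusted p = 0.502, edgeR) with the striatal covariate and 0.04 (adjusted p = 0.975, edgeR) with the dentate and pyramidal ones. Without control NaKtide 3 and 4 it was -2.76 (adjusted p = 0.0483, edgeR), and all of these fits were added after seeing the data. Sorl1, a sorting receptor for the amyloid precursor, had -0.87 ± 0.27, with 73.3 to 128 CPM in western NaKtide libraries, against 189, 228, 251, 262 and 159.8 CPM in western libraries.

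**Figure D3:**
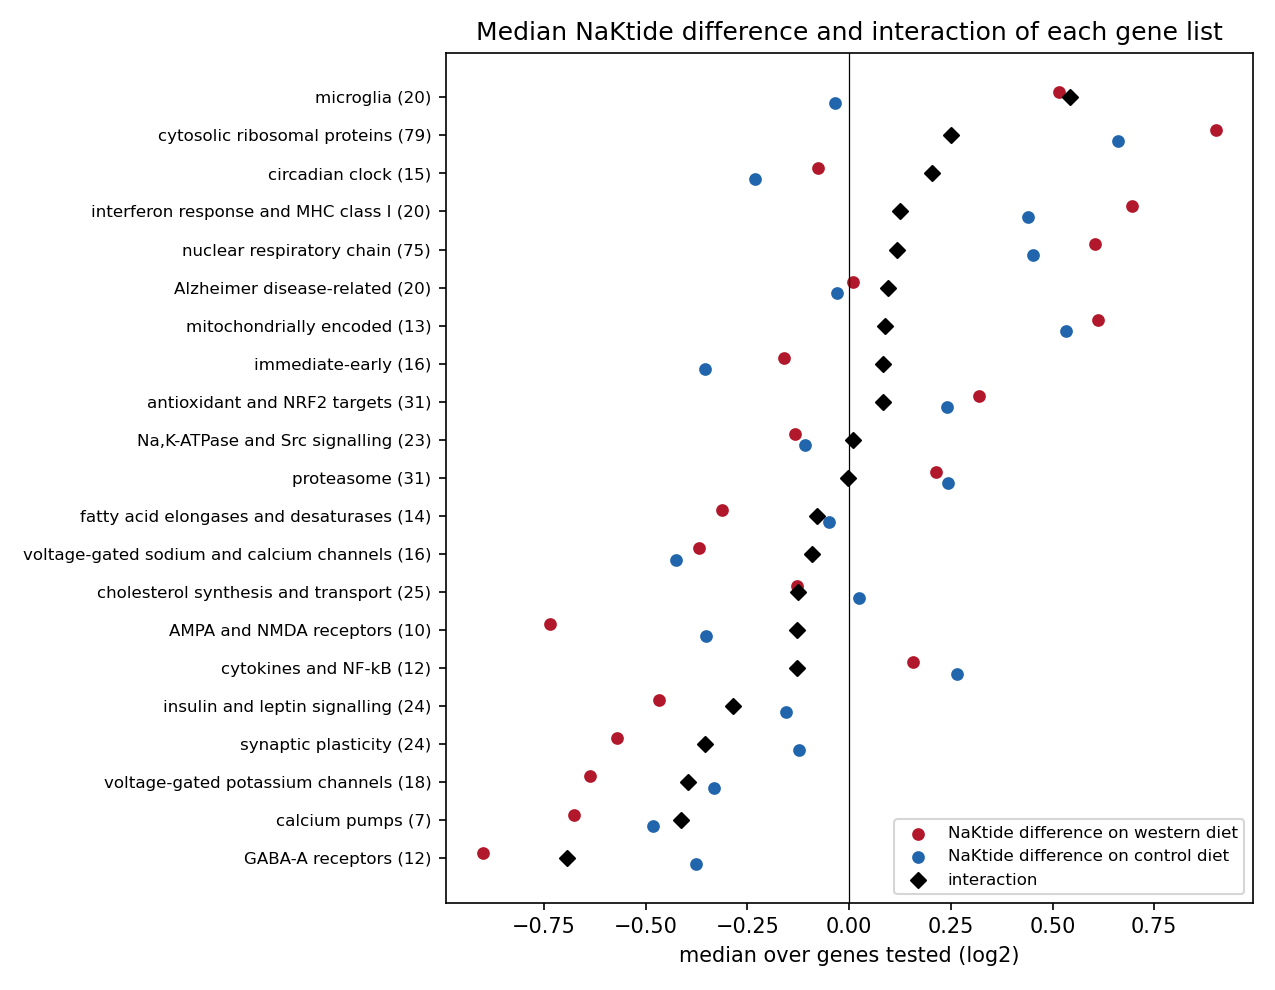
For each of 21 gene lists, with the number of genes tested in parentheses, points give the median log2 NaKtide difference on the western diet (red) and on the control diet (blue), and diamonds the median interaction. Microglia genes have the highest median interaction (0.54) and GABA-A receptors the lowest (-0.69), while the points of the cytosolic ribosomal proteins lie to the right of 0 on both diets (0.90 and 0.66).

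Marker lists of regions and cell types ran from 0% to 100% of genes at an unadjusted p under 0.05 in the interaction, and no marker had an adjusted p under 0.05 (edgeR). Of 11 pyramidal cell markers, 7 had a negative interaction at an unadjusted p under 0.05 (background 8.47%) and 1, Wfs1, a positive one, with a median of -2.11. Neurod6, a transcription factor of pyramidal neurons, had 0.349 to 29.0 CPM (median 8.39) in western NaKtide libraries, against 132, 68.4, 89.8, 173 and 50.01 CPM in western libraries. It had 88.3, 123, 28.6, 17.3 and 41.7 CPM in control NaKtide libraries, against 18.9 to 73.5 CPM (median 35.7) in control libraries. In 2 western NaKtide libraries Neurod6 was near 0, and its interaction was -3.61.

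Of 9 dentate granule cell markers, 4 had a negative interaction at an unadjusted p under 0.05 (background 8.47%). These were Lct (-5.89), Dsp (-5.64), Prox1 (-2.06) and Stxbp6 (-1.15), and the list median was -1.15. The summed level of the dentate markers ran from 279 to 529 CPM in western NaKtide, from 563 to 983 CPM in western, from 333 to 798 CPM in control NaKtide and from 464 to 535 CPM in control. The sum of the pyramidal markers ran from 233 to 958 CPM in western NaKtide, from 774 to 1705 CPM in western, from 523 to 1416 CPM in control NaKtide and from 548 to 1366 CPM in control. Both sums thus centred highest in western.

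Of 10 striatal markers, all 10 had a positive interaction at an unadjusted p under 0.05 (background 6.12%), with a median of 3.54. Penk had 60.1 to 1425 CPM (median 288) in western NaKtide libraries, against 146, 26.1, 92.0, 53.5 and 71.0 CPM in western libraries. It had 90.2, 61.4, 49.9, 457 and 399.6 CPM in control NaKtide libraries, against 84.5 to 981 CPM (median 513) in control libraries. Each NaKtide group held libraries at the level of the western ones and others far above. The sum of the list ran from 264 to 5226 CPM in western NaKtide, from 211 to 558 CPM in western, from 249 to 1838 CPM in control NaKtide and from 357 to 3535 CPM in control. Of the 7 hypothalamic markers that passed the filter, 4 had a positive interaction at an unadjusted p under 0.05 (background 6.12%). They were the neuropeptides Pmch, Avp, Oxt and Hcrt, and no marker had a negative one. The mean log2(CPM + 1) of this list was 4.63 and 4.73 in control 5 and 6. It was 4.23 in western NaKtide 1 and 2.91 or less elsewhere. Of 5 cerebellar markers, 3 had a negative interaction at an unadjusted p under 0.05 (background 8.47%). Their mean level was 5.71 in western 4 and 3.93 or less elsewhere. The cerebellar median of -2.84 ran from -3.10 to -0.98 with single libraries left out. Of the other lists, endothelial cells and interneurons each had 1 of 10 genes with a positive interaction at an unadjusted p under 0.05. Pituitary had 1 of 2 tested with a negative one. Thalamus, neocortex, monoamine neurons, choroid plexus, oligodendrocytes, astrocytes, ependymal cells and blood cells had 0.

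No marker of the dentate, pyramidal and striatal lists was at 0 in a whole group. With the striatal marker level as a covariate the 20 genes of smallest p kept their sign and between 68.6% and 117% of their interaction, with a median of 88.1%. With the dentate and pyramidal marker levels as covariates they kept their sign and between 44.1% and 109%, with a median of 84.8%. Elovl4 was then at -0.83, Camta1 at -1.05, Hes5 at 1.60, Clstn2 at -0.77 and Gpr22 at -1.11, while Gpd2 was at -0.94, Susd6 at -0.80, Nfib at -0.72, Tcf4 at -1.01, Fgf10 at -1.34 and Npnt at -1.27. Both of these fits were added after the data had been seen, and each called 0 genes. What the markers contribute beyond these covariates was not tested.

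**Figure D4:**
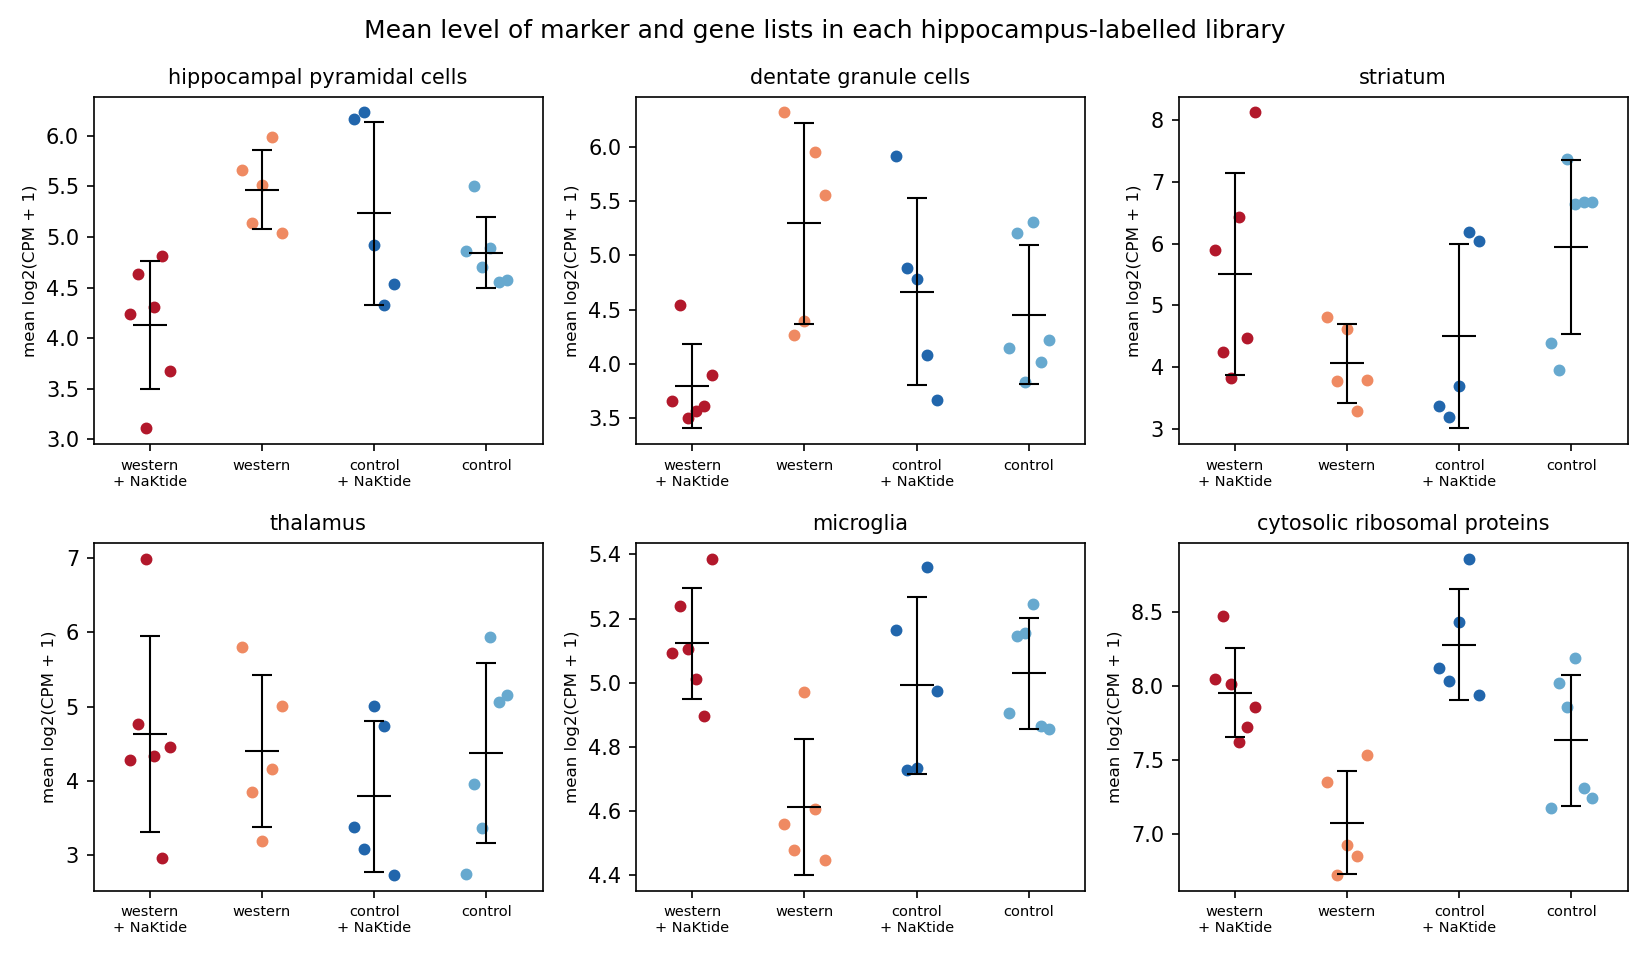
The mean log2(CPM + 1) of each list is plotted for every library, with a line at the group mean and bars of 1 SD (western NaKtide n = 6, western n = 5, control NaKtide n = 5, control n = 6). Western libraries are the highest on average for pyramidal and dentate markers and the lowest for striatal, microglia and ribosomal genes, while thalamic markers overlap in all groups, and the axes do not start at 0.

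Set beside the 20 libraries labelled cerebellum, the interaction did not differ by a passing test. In a fit of all 42 libraries and 17088 genes, 0 genes (0%) differed in their interaction between hippocampus and cerebellum at an adjusted p under 0.05 by edgeR, 1682 did so at an unadjusted p under 0.05 (9.84%), and DESeq2 called 19. Of the 20 genes of smallest p, 18 had the same sign in the cerebellum libraries. The share of all genes with the same sign was not computed, so this count has no background. For the 20, the adjusted p of the difference lay between 0.215 and 0.871 (edgeR). Smarcd3, with 0.215, had an interaction of -0.41 in cerebellum libraries, and Elovl4 had 0.03 there. Mpdz had -0.72 and Luzp1 -0.75 in cerebellum libraries, with adjusted p of the difference of 0.833 for Mpdz and 0.871 for Luzp1 (edgeR). For the microglia list the median interaction was 0.17 in cerebellum libraries and for the cytosolic ribosomal proteins 0.86. Region markers also had interactions in cerebellum libraries, with medians of -5.02 for cerebellar, 5.52 for hypothalamic and 4.84 for pituitary markers. The striatal median was -0.15 there. What tissue content adds to the region comparison was not tested.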

How the data were processed

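Raw counts of 54232 Ensembl genes in 42 libraries were used as the authors deposited them; their normalized counts and FPKM were not used. Per the submitters' processing notes, Trimmomatic 0.38, HISAT2 2.1.0, DESeq2 1.20.0 and build GRCm38 were used, and per the labels the mRNA kit was stranded. Counter, strand setting and annotation: not given in the sources used here. Since the series' design text describes liver and adipose samples, groups rest on the sample labels.

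The 22 hippocampus libraries were fitted as 4 groups with edgeR 4.0.16 in R 4.3.3 (TMM factors, filterByExpr by group, quasi-likelihood F test, Benjamini-Hochberg adjusted p under 0.05 over 16442 genes). The interaction and its component differences come from that fit, and the difference between region labels from all 42 libraries. The SE is the log2 value over the square root of F. CPM values use TMM factors. List levels are means of log2(CPM + 1).

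Genes named are the 20 of smallest p with a symbol and a mean of at least 1 CPM (fewer than 10 passed the test), the gene of smallest p in each of 21 pathway lists, and Atp1b1 and Src, with some genes not reported here; other list members are given as examples at an unadjusted p under 0.05. The members and lists were chosen with earlier results of these data known. In 37 lists, 627 of 647 entries were tested.

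Alternatives were DESeq2 1.42.0, its size factors in edgeR, no low-count filter, a replicate block, 2 surrogate variables (sva 3.50.0), a component of the cerebellum libraries as covariate, thinning, leaving out libraries, and summing control 5 and 6. Added after seeing the data were exon length and GC offsets, marker covariates and leaving out control NaKtide 3 and 4. Same-numbered hippocampus libraries of different groups correlated with a median r of -0.12 over 31 pairs (9 over 0.1). Differently numbered libraries and libraries of different region labels were not compared. Whether the numbers pair samples is therefore not known. In simulated data with 200 changed genes, the fit called 30% of 2-fold and 77% of 4-fold interactions. Of its calls there, 4.46% were false. Totals of 4669374 to 9521002 counts make genes near 1 CPM imprecise. Promoters are from RefSeq (GRCm38.p6): of the 20 genes, 13 had 1 entry that could be used.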

Additional observations from a re-analysis of the deposited data

Results flagged for a closer look

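In 19 of 312 groups of libraries examined, over the named genes, the list levels, the total counts and the mitochondrial share, 1 library stood far from the others of its group by Dixon's criterion; this is 6.09%, and chance gives about 1 in 20.

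Among genes, the library apart was the lowest of its group for Gpd2 in control 4 (36.3 CPM) and Smarcd3 in western 1 (37.6 CPM). It was the highest for Trhde in western NaKtide 4 (9.22 CPM), Cd68 in western NaKtide 6 (20.7 CPM), Scn4b, a sodium channel beta subunit abundant in striatum, in western NaKtide 6 (714 CPM), Luzp1 in western 4 (103 CPM), Rtl8b in western 5 (266 CPM), Bcan in control NaKtide 4 (262 CPM) and Gabra5 in control 2 (54.8 CPM).

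Among list levels, given as mean log2(CPM + 1), the library apart was western NaKtide 6 for the Alzheimer disease-related genes (6.75), western NaKtide 2 for choroid plexus (6.88), western 1 for choroid plexus (5.34) and western 5 for monoamine neurons (5.99). It was control NaKtide 1 for the Na,K-ATPase and Src genes (6.61), control NaKtide 2 for insulin and leptin signalling (4.76) and control NaKtide 5 for interneurons (6.72). It was control 2 for pyramidal cells (5.50) and for blood cells (7.21), and control 4 for neocortex (3.28).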

How the results depend on the processing

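The count of called interaction genes was 0 under 28 of 35 alternatives. It was 182 with DESeq2, 41 with 2 surrogate variables, 12 with a component of the cerebellum libraries as covariate, 141 without control NaKtide 3 and 4, and 0 to 59 when single libraries were left out (59 without western NaKtide 2, 47 without control NaKtide 4 and 3 without control NaKtide 5). The cause was not tested. Genes at an unadjusted p under 0.05 numbered 1742 to 3325 over all alternatives. The region difference stayed at 0 called genes under 44 of 47 alternatives and was 19 with DESeq2 and 0 to 24 with single libraries left out (24 without western NaKtide 2 and 3 without cerebellum control 5). With the replicate block the interaction called 0 genes and the region difference 0, and the block changed no call of a named gene. Whether the numbers pair the libraries is not known.

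Of 1365 values of 39 named genes, 1247 kept sign and side of the threshold, 112 passed it and 6 changed sign. None of the 700 values of the 20 genes of smallest p changed sign, and 96 passed the threshold. Sign changes were in 4 genes. Src was 0.11 with the striatal and 0.17 with the dentate and pyramidal covariates, which also gave -0.31 for mt-Co1, -0.19 for Scn4b and 0.039 for Nr4a3; mt-Co1 was -0.020 with surrogate variables. Of 1295 list medians, 46 moved by more than their spread.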
